A study of Mus musculus with 5 samples.

Results

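The de novo purine synthesis enzymes are described here by 10 genes, of the 24421 listed in each of the 2 deposited expression tables of mouse cells. They were picked by symbol, as Ppat, Gart, Pfas, Paics, Adsl, Atic, Impdh1, Impdh2, Gmps and Adss, and all 10 had a row in both tables and passed the filter on low values in every comparison. mRNA was measured by RNA-seq in 5 libraries, 1 per group, and is given as FPKM, sequenced fragments scaled to transcript length in kilobases and to the mapped fragments of the library. The first table held mouse embryonic fibroblasts (MEFs) isolated from embryos of the CF-1 stock and kept to a low passage, an induced pluripotent stem cell line (iPSCs), and the mouse embryonic stem cell line V6.5 without any treatment. The second, made separately, held V6.5 cells that stably carried a non-targeting control shRNA (NTC) or an shRNA against Gldc (shGldc), the glycine decarboxylase of the mitochondrial glycine cleavage system. The Gldc shRNA was carried by a pLKO.1 vector, and the authors' methods do not state the vector of the non-targeting control. Whether the cells were a pool or a clone is not given in the sources used here. Which of the Gldc hairpins the library holds is not given either. The MEFs and the stem cells were also grown in different media, which cannot be told apart from cell type, and the mouse stock of the iPSC line is not given in the sources used here. The authors describe mouse stem cell culture both without feeder cells and on them, in media of different serum content. Their methods do not say which was used for these libraries, and give no mouse stock for V6.5 cells.

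De novo purine synthesis builds the purine ring on phosphoribosyl pyrophosphate (PRPP), with carbon and nitrogen from glycine, glutamine, aspartate, bicarbonate and 10-formyl-tetrahydrofolate (10-formyl-THF). The path ends in inosine monophosphate (IMP), from which separate branches make the guanine nucleotide GMP and the adenine nucleotide AMP. It is known to be highly used by dividing cells, which need purines for DNA, RNA and ATP, while resting cells rely more on salvage of free bases and nucleosides. Glycine enters the ring at the step of Gart, and 10-formyl-THF at steps of Gart and Atic.

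The marker genes followed the labels. The summed level of 8 pluripotency markers was 3.28 FPKM in the MEFs and between 3753 and 7023 FPKM in the other libraries, where all 8 reached 1 FPKM. The 8 fibroblast markers summed to 7079 FPKM in the MEFs, 51.1 FPKM in untreated V6.5 cells, 12.9 FPKM in iPSCs, 11.3 FPKM in NTC and 4.09 FPKM in shGldc, and 7 of the 8 reached 1 FPKM in untreated V6.5 cells. The MEF library also held all 6 macrophage markers, at 131.0 FPKM in sum, with C1qa at 52.7 FPKM, whereas in the stem cell libraries only Cd68 reached 1 FPKM. The part of these other cells in the results below was not tested, and in whole cultures less RNA per cell cannot be told apart from fewer cells of a type. Gldc stood at 74.7 FPKM in NTC and 2.07 FPKM in shGldc, which left 2.77% of the control level. The spacing of low FPKM values gave a rough depth of 2.21e+07 to 2.91e+07 fragments per library. From that estimate, the counting error of a member's log2 ratio was at most 0.09, for Ppat in the comparison of iPSCs with MEFs, but this covers counting only and says nothing about the spread between cultures.

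The enzymes that make IMP were read first. Ppat, the amidotransferase that commits PRPP to the pathway, lies on mm10 at chr5:76913249-76951578 on the minus strand. Its level was 6.41 FPKM in MEFs, 38.1 in untreated V6.5 cells, 23.9 in iPSCs, 38.7 in NTC and 29.9 in shGldc. The MEF library was the low one, and the untreated and NTC libraries of V6.5 cells, although from different tables, were nearly level. Paics, which carries out the carboxylation and the aspartate addition in the middle of the path, lies head to head with Ppat at chr5:76951307-76967509 on the plus strand. Its level was 77.2 FPKM in MEFs, 210.8 in V6.5 cells, 135.9 in iPSCs, 153.3 in NTC and 124.0 in shGldc. The first exons of both genes overlap by 272 bases on opposite strands, and since the library kit does not mark strand, fragments from that stretch cannot be assigned to either gene. Although they adjoin, the genes differed in level: Paics had 12.1 times the FPKM of Ppat in MEFs, and 5.54 times in V6.5 cells, 5.68 in iPSCs, 3.96 in NTC and 4.15 in shGldc.

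Gart, a single protein that joins glycine to the growing ring, adds a formyl group and closes the first ring, lies at chr16:91621186-91646952 on the minus strand. It stood at 45.9 FPKM in MEFs, 292.3 in V6.5 cells, 166.6 in iPSCs, 324.2 in NTC and 190.2 in shGldc. The untreated and the NTC library were the highest, and the iPSC and shGldc libraries lay well below them but far above the MEFs. An annotated antisense gene, Gm15964, which has no row in the tables, overlaps 1014 exonic bases of Gart, so reads from either strand would count here. Pfas, which converts the amide to the amidine with glutamine nitrogen, lies at chr11:68985697-69008460 on the minus strand. It was at 5.07 FPKM in MEFs, the lowest member level of any library, and at 24.2 in V6.5 cells, 16.8 in iPSCs, 40.4 in NTC and 30.1 in shGldc. Here the libraries of the second table were both above untreated V6.5 cells.

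Adsl, the lyase that releases fumarate both on the way to IMP and on the way to AMP, lies at chr15:80948490-80970946 on the plus strand. It was measured at 20.1 FPKM in MEFs, 54.2 in V6.5 cells, 27.5 in iPSCs, 57.6 in NTC and 42.0 in shGldc, with iPSCs closer to MEFs than to V6.5 cells. Atic, which adds the last formyl group and closes the second ring to give IMP, lies at chr1:71557150-71579631 on the plus strand. It was at 77.7 FPKM in MEFs, 106.8 in V6.5 cells, 76.8 in iPSCs, 135.8 in NTC and 102.4 in shGldc. Atic was the second most abundant member in MEFs and behind Impdh2, Gart and Paics in each stem cell library.

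**Figure D1:**
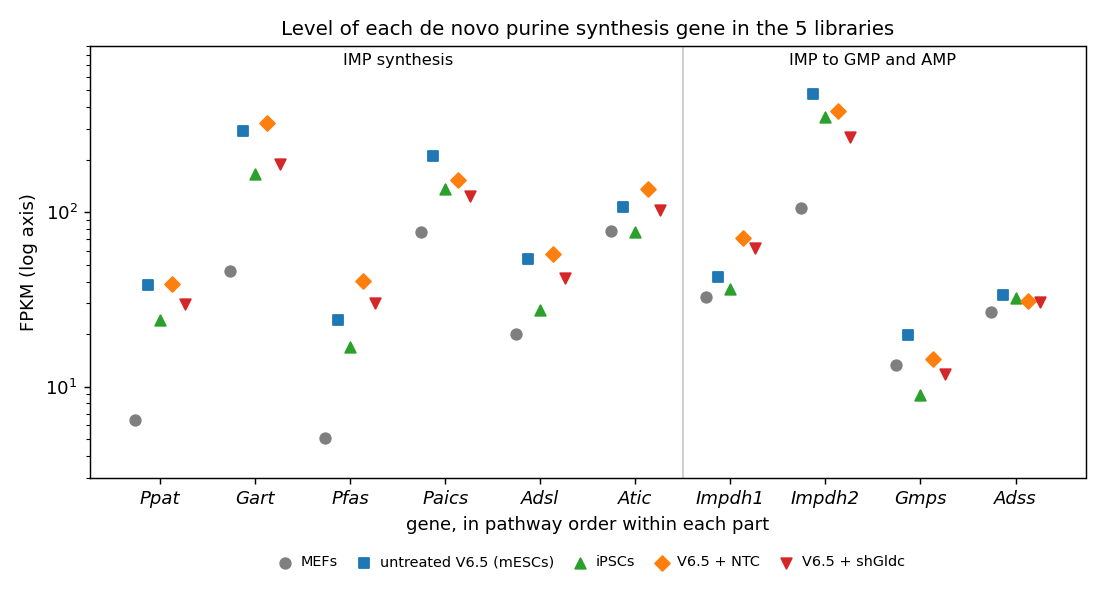
FPKM on a log axis (vertical) of the 10 genes (horizontal) in the 5 libraries, 1 point per library and no error bars, since each group had 1 library. MEFs hold the lowest point for Ppat, Gart, Pfas, Paics, Adsl, Impdh1, Impdh2 and Adss, whereas the lowest point of Atic, at 76.8 FPKM, and of Gmps, at 8.94 FPKM, is that of iPSCs.

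Of the enzymes beyond IMP, IMP dehydrogenase is the first and rate-limiting step to GMP, and 2 genes encode it. Impdh2, at chr9:108560286-108565584 on the plus strand, was the most abundant member in all 5 libraries. Its level was 106.0 FPKM in MEFs, 474.9 in V6.5 cells, 352.0 in iPSCs, 380.8 in NTC and 269.8 in shGldc. Of its 50-base stretches, 39.3% also occur in transcripts of other genes, mostly of the pseudogene Impdh2-ps, which has no row in the tables, so its level is less certain than those of the others. Impdh1, at chr6:29200434-29216364 on the minus strand, shared none, and stood at 32.5 FPKM in MEFs, 42.5 in V6.5 cells, 36.3 in iPSCs, 71.4 in NTC and 62.5 in shGldc. The 3 libraries of the first table lay close together for Impdh1, and both of the second table lay above them.

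Gmps, the amidotransferase that ends the GMP branch, lies at chr3:63976106-64022579 on the plus strand and was the least abundant member in each stem cell library. It was at 13.3 FPKM in MEFs, 19.7 in V6.5 cells, 8.94 in iPSCs, 14.3 in NTC and 11.8 in shGldc. Adss, the adenylosuccinate synthetase that opens the AMP branch, lies at chr1:177762962-177796511 on the minus strand and varied least. It ranged from 26.8 FPKM in MEFs to 33.7 in V6.5 cells, with iPSCs at 32.3, NTC at 30.9 and shGldc at 30.4. The summed level of the 10 genes was 411 FPKM in MEFs, 1297 in V6.5 cells, 877 in iPSCs, 1247 in NTC and 893 in shGldc. Within a library the most abundant member exceeded the least abundant by 20.9-fold in MEFs and by up to 39.4-fold in iPSCs.

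The sequence just before the start of Gart is shown because this gene had the largest difference between V6.5 cells and MEFs and between NTC and shGldc. RefSeq promoter windows (GRCm38.p6, the assembly of mm10) were given for 9 of the 10 members, all but Pfas. The 250 bases before the RefSeq start of Gart span chr16:91646973-91647222, are printed along the minus strand, and carry CCAAT (capitals) 33 bases before the start.
Gart: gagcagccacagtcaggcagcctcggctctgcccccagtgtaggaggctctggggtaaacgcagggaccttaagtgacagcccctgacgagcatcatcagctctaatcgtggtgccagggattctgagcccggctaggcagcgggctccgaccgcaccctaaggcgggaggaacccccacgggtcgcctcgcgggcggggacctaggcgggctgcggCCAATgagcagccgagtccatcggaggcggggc

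The E-box CACGTG, the site known for factors of the Myc family among others, occurred in the windows of 3 members, and each is shown with 12 bases on either side and the motif in capitals. They lie on the plus strand at chr1:71557137-71557166 for Atic, chr9:108560314-108560343 for Impdh2 and chr5:76951087-76951116 for Paics, and start 7, 110 and 203 bases before the RefSeq start. The E-box of Paics lies in the first exon of Ppat, and those of Atic and Impdh2 overlap annotated first exons of their own genes.
Atic: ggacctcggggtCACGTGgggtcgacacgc
Impdh2: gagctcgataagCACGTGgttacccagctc
Paics: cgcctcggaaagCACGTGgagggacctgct

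Of all 32851 windows of 300 bases, 7.15% held CACGTG, which reads the same on both strands. CCAAT on either strand was found in Atic, Gart, Paics and Impdh2 and in 37.4% of all windows. The core of the Nrf1 motif, CGCATGCG, was in none of the members' windows and in 1.87% of all. In V6.5 cells over MEFs, the log2 ratios of the 3 members with an E-box were 2.16 for Impdh2, 1.45 for Paics and 0.46 for Atic. Members whose window lacked the motif were Gart (2.67), Ppat (2.55), Adsl (1.43), Gmps (0.57), Impdh1 (0.39) and Adss (0.33). Pfas had no window, and any part of the motif in these ratios was not tested.

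The comparison of V6.5 cells with MEFs asked how expression in pluripotent cells differs from that in fibroblasts. All 10 genes were higher in V6.5 cells, and 6 of them at least 2-fold. These were Gart (6.37-fold), Ppat (5.94-fold), Pfas (4.77-fold), Impdh2 (4.48-fold), Paics (2.73-fold) and Adsl (2.70-fold). Atic, Impdh1, Gmps and Adss were also higher, but their log2 ratios lay between 0.33 and 0.57, all short of 2-fold. With libraries scaled to the same FPKM sum these ratios were 0.22 for Atic, 0.15 for Impdh1, 0.33 for Gmps and 0.09 for Adss, and centred on the median gene 0.21, 0.14, 0.32 and 0.08, still above 0. Folds and percents of the 10 genes were plain ratios of FPKM. Log2 ratios, counts past 2-fold and folds of the related genes below were taken with a pseudocount of 0.1. Without replicates a size of 2-fold stood in for a test. The members' median log2 ratio was 1.44, against 0.25 over the 12840 genes with at least 1 FPKM in either library. Of those genes, 30.3% reached 2-fold in the same direction and 23.3% in the opposite one, and 56.4% were higher in V6.5 cells by any amount.

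The 4 members with the largest folds belong to the entrance of the pathway (Ppat, Gart and Pfas) and to the GMP branch (Impdh2). The median of the 6 IMP-making enzymes was 1.84. Gart had 1.71 times the FPKM of Adss in MEFs and 8.67 times in V6.5 cells. Impdh2 provided 76.5% of the summed FPKM of both IMP dehydrogenase genes in MEFs and 91.8% in V6.5 cells. Adssl1, the isoenzyme of adenylosuccinate synthetase known from muscle and not among the 10 genes, was at 2.58 FPKM in MEFs and 9.79 FPKM in V6.5 cells. Adss thus made up 91.2% of the FPKM of both synthetase genes in MEFs and 77.5% in V6.5 cells.

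Compared with MEFs, iPSCs had a smaller difference. Ppat (3.74-fold), Gart (3.63-fold), Impdh2 (3.32-fold) and Pfas (3.31-fold) were at least 2-fold higher in iPSCs, the same 4 genes that had the largest folds in V6.5 cells. Paics was 1.76-fold and Adsl 1.37-fold higher, Adss (log2 ratio 0.27) and Impdh1 (0.16) were close to MEFs, and Atic stood at 0.987 and Gmps at 0.672 times the level of MEFs. The members' median log2 ratio was 0.63, beside 0.31 over 13032 genes, of which 31.5% reached 2-fold upward, 21.3% reached it downward and 58.4% were higher in iPSCs by any amount. With each library scaled to the same FPKM sum, or with ratios centred on the median gene, Impdh1 and Adss also turned lower than in MEFs, and the members' median was 0.33 or 0.32. Scaling to the same FPKM sum shifted the median of all genes by -0.30 as well, to near 0, and centring set it to 0, so the members' median stood about as far above that of all genes as before. This comparison shares the MEF library with the previous one, so their similarity is not a second observation.

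**Figure D2:**
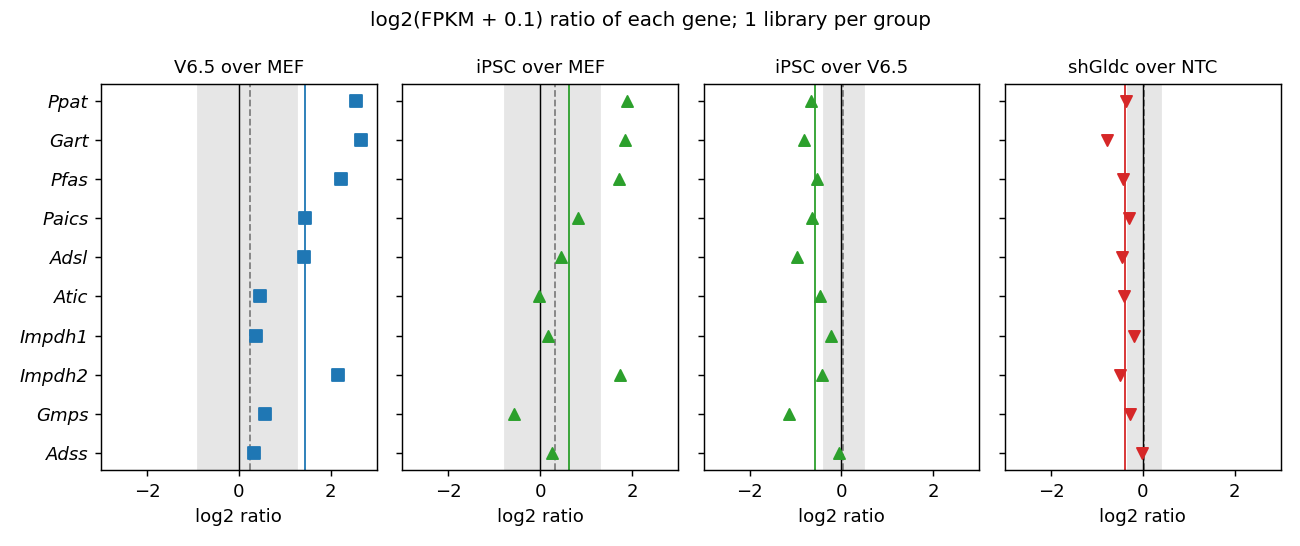
log2 ratio of FPKM + 0.1 (horizontal) of each gene (vertical) in 4 comparisons of 1 library with 1 library. The coloured line is the median of the 10 genes, the dashed line and grey band are the median and the quartiles of all genes. All points lie above 0 in V6.5 over MEF and below 0 in iPSC over V6.5 and shGldc over NTC.

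Set directly against V6.5 cells, iPSCs were lower for all 10 genes. Gmps, at 45.3% of the level of V6.5 cells, was the only one past 2-fold, and Adsl followed at 50.7%. Gart was at 57.0%, Ppat at 62.9%, Paics at 64.5%, Pfas at 69.4%, Atic at 71.9%, Impdh2 at 74.1%, Impdh1 at 85.6% and Adss at 95.8%. The median log2 ratio was -0.58, beside 0.04 over 12323 genes. With libraries scaled to the same FPKM sum, or ratios centred on the median gene, Adsl was past 2-fold too. Of all genes 47.4% were lower by any amount, 7.44% at least 2-fold lower and 10.1% at least 2-fold higher. In percent of the IMP dehydrogenase genes the lines were close, with Impdh2 at 90.6% in iPSCs. Both lines had all 8 pluripotency markers, at 5671 FPKM in sum in iPSCs and 7023 FPKM in V6.5 cells, and 6 of them were lower in iPSCs, with a median log2 ratio of -0.32.

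**Figure D3:**
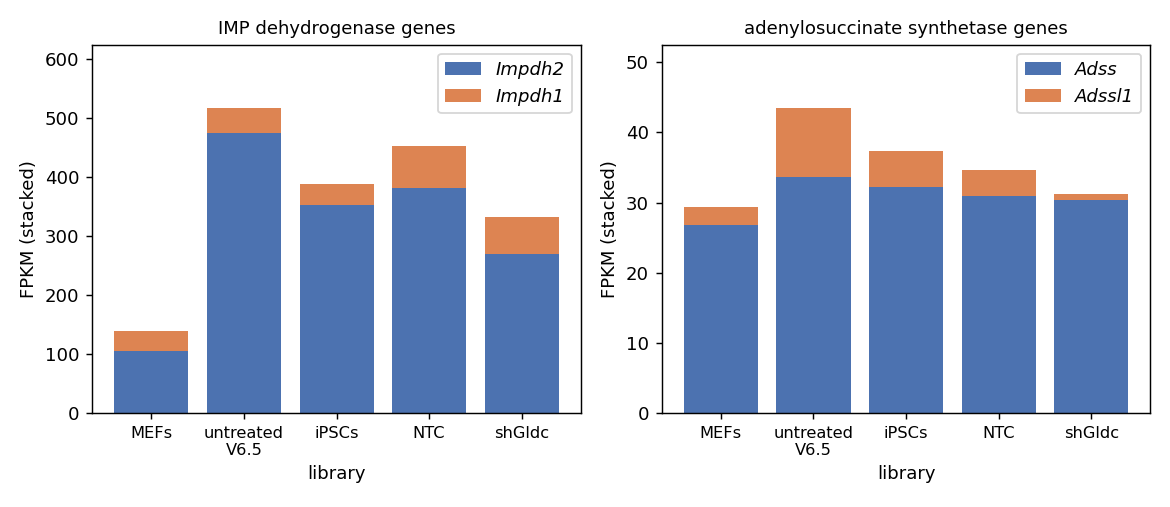
Stacked FPKM (vertical, from 0) of the IMP dehydrogenase genes (left) and the adenylosuccinate synthetase genes (right) in each library (horizontal). Impdh2 makes up between 76.5% and 91.8% of the left bars and Adss between 77.5% and 97.4% of the right bars.

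The knockdown of Gldc asked what changes in V6.5 cells when this enzyme is depleted. In shGldc each of the 10 genes was below its NTC level, and none by 2-fold. Gart, the enzyme that uses glycine, was the lowest at 58.7% of its NTC level. Impdh2 was at 70.8%, Adsl at 72.9%, Pfas at 74.6%, Atic at 75.4%, Ppat at 77.1%, Paics at 80.9%, Gmps at 82.6%, Impdh1 at 87.5% and Adss at 98.3%. The median log2 ratio was -0.39, beside 0.04 over 11969 genes. Of all genes 47.2% were lower by any amount in shGldc, 7.68% at least 2-fold lower and 8.97% at least 2-fold higher. Markers of the pluripotent state were lower too, 7 of 8 in shGldc, none by 2-fold, with a median log2 ratio of -0.56. They ran from Utf1 (-0.87), Tdgf1 (-0.86), Sox2 (-0.77) and Esrrb (-0.72) to Nanog (-0.16), and Dppa5a, the most abundant of the 8, was at 0.32. Their part in the lower levels of the 10 genes was not tested.

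There was no second library to show the spread of a control. As the nearest yardstick, NTC and untreated V6.5 cells, the same line with and without the control vector and in separately made tables, had log2 ratios with a robust SD of 0.59 over 12048 genes. In shGldc over NTC, 1 member, Gart (log2 ratio -0.77), went beyond that size, as did 31.9% of all genes. Between NTC and untreated V6.5 cells themselves 2 members did, Pfas (0.74) and Impdh1 (0.75), beside 33.2% of all genes. Between NTC and untreated V6.5 cells the members showed no shared direction, with 6 higher in NTC and 4 lower and a median of 0.06, and 45.6% of all genes were higher. Taking untreated V6.5 cells as the control in place of NTC left 8 of the 10 genes lower in shGldc, with a median of -0.36, where 51.2% of all genes were lower. In that comparison 4 members (Gart, Paics, Impdh2 and Gmps) went beyond 0.59 in size, beside 42.7% of all genes. The pluripotency markers were then all 8 lower in shGldc, and 3 at least 2-fold, Tdgf1 (-1.31), Utf1 (-1.24) and Dppa5a (-1.21), of which Dppa5a was already at -1.53 in NTC over untreated V6.5 cells. Pfas (log2 ratio 0.32) and Impdh1 (0.56) were then higher, and Impdh2, at 56.8% of untreated V6.5 cells, was the lowest member.

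**Figure D4:**
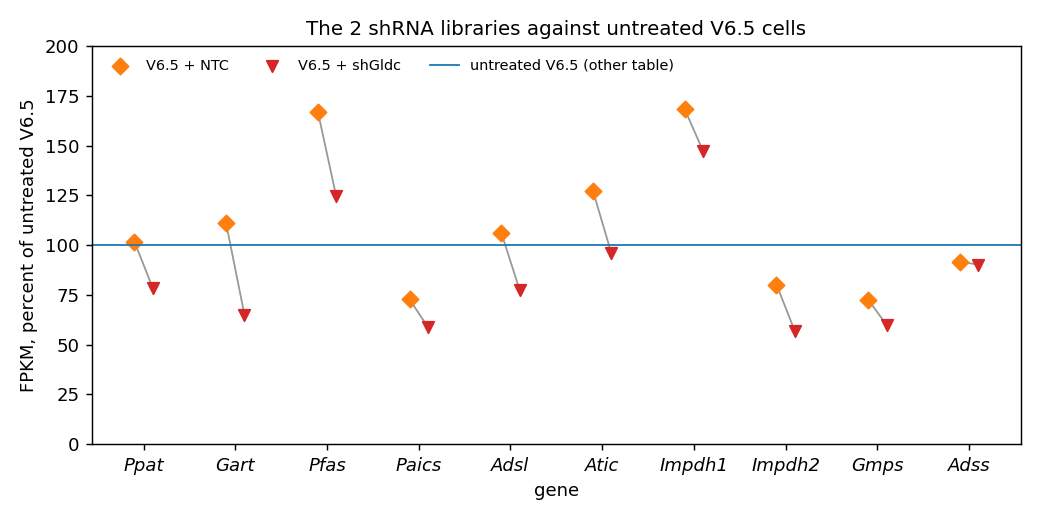
FPKM of NTC (diamonds) and shGldc (triangles) as a percent of untreated V6.5 cells (vertical; blue line at 100) for each gene (horizontal), 1 library each. The line that joins the 2 libraries of a gene falls for all 10 genes, steeply for Gart (from 110.9 to 65.1) and hardly for Adss (from 91.7 to 90.2), while the NTC points themselves run from 72.6 for Gmps to 168.2 for Impdh1.

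Among the lists of related purine, pyrimidine, folate and cell cycle genes, Adssl1 was the one gene past 2-fold in shGldc over NTC, at 3.75 FPKM in NTC and 0.816 FPKM in shGldc, a log2 ratio of -2.07. Its level was 9.79 FPKM in untreated V6.5 cells, so it also differed between the control libraries. Against untreated V6.5 cells, 8 genes of these lists were at least 2-fold lower in shGldc (Adssl1, Ampd3, Prps1, Prps2, Top2a, Hprt, Gmpr and Rrm2) and 4 at least 2-fold higher (Nt5e, Ak4, Nme1 and Ak1), where 13.9% and 9.89% of all genes were. Adss made up 97.4% of the synthetase FPKM in shGldc and 89.2% in NTC. The share of Impdh2 was 84.2% in NTC and 81.2% in shGldc, both below the 91.8% of untreated V6.5 cells.

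The genes that feed the pathway were read from lists of related genes. Their counts stand against the same shares of all genes as those of the 10 members. At least 2-fold higher and lower were 30.3% and 23.3% in V6.5 over MEF, 31.5% and 21.3% in iPSC over MEF, 10.1% and 7.44% in iPSC over V6.5, and 8.97% and 7.68% in shGldc over NTC, and 47.4% and 47.2% were lower by any amount in the last pair of comparisons. PRPP synthetases and their associated proteins supply the substrate of Ppat, and 5 of 6 were detected, since Prps1l1 was listed at 0 throughout. Of these 5, 3 were at least 2-fold higher in V6.5 cells than in MEFs and none lower, with a median log2 ratio of 1.21. Prps1, the main synthetase gene, was at 17.1 FPKM in MEFs, 105.0 in V6.5 cells, 45.1 in iPSCs, 62.3 in NTC and 36.6 in shGldc. In the first table this is the order of Gart and of most other members. Prps1 and Gart both had a log2 ratio of -0.77 in shGldc over NTC. In NTC over untreated V6.5 cells they differed, with Prps1 at -0.75 and Gart at 0.15. Prps2 was at 2.32-fold in V6.5 cells but 0.917-fold in iPSCs relative to MEFs. Prpsap2, an associated protein, was 3.83-fold and 3.68-fold higher in V6.5 cells and iPSCs, and stood at a log2 ratio of 0.14 in shGldc. The list's median was 1.02 in iPSCs over MEFs with 3 members at least 2-fold higher, -0.20 in iPSCs over V6.5 cells with Prps1 and Prps2 at least 2-fold lower, and -0.09 in shGldc with none past 2-fold.

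The 10-formyl-THF list holds folate enzymes on the way to or from the formyl donor of Gart and Atic, including Shmt1 and Shmt2, which load the carbon of serine onto THF, and Mthfs, which returns folinate to the pool. In V6.5 cells over MEFs, 4 of its 9 genes were past 2-fold upward and 2 downward, with a median log2 ratio of 0.33. The cytosolic enzymes Shmt1 (9.09-fold) and Mthfd1 (7.83-fold) were the highest, with Mthfs and Aldh1l1 also past 2-fold. The mitochondrial Aldh1l2 was at 24.9 FPKM in MEFs and below 1 FPKM in each stem cell library, and Mthfd2l was likewise at 3.14 FPKM in MEFs and below 1 FPKM elsewhere. In iPSCs over MEFs 3 were past 2-fold upward and 2 downward, with a median of 0.50. Over V6.5 cells the 7 detected genes of iPSCs had a median of -0.21, from Mthfs (-0.82) to Mthfd2 (0.80). In shGldc all 7 detected genes were below NTC, none by 2-fold, with a median of -0.26. Mthfd1l, the mitochondrial formyl-THF synthetase, was at 32.9 FPKM in NTC and 0.518 times that in shGldc, the list's lowest log2 ratio at -0.95, and Mthfd1 (-0.10) was nearest to 0.

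Purine salvage, the alternative source of nucleotides, had 9 detected genes. In V6.5 cells over MEFs only Pnp2, a purine nucleoside phosphorylase gene listed at 0 in MEFs and at 15.5 FPKM in V6.5 cells, counted as past 2-fold, a ratio set by the pseudocount, and the median log2 ratio was 0.76. Hprt, which salvages hypoxanthine and guanine, was at 46.3 FPKM in MEFs, 90.8 in V6.5 cells, 67.5 in iPSCs, 66.5 in NTC and 42.0 in shGldc. The median in iPSCs over MEFs was 0.10, with Pnp2 (13.5 FPKM in iPSCs) again counted as higher and the adenosine kinase gene Adk (log2 ratio -1.35) past 2-fold lower. Adk was also the one gene of the list past 2-fold in iPSCs over V6.5 cells, at -1.27, where the list's median was -0.43. In shGldc 8 of the 9 salvage genes were lower than in NTC, none by 2-fold, from Pnp2 and Hprt (both -0.66) to Dck (0.04), and the median was -0.47. The de novo and the salvage list thus had medians of the same sign in shGldc. Against untreated V6.5 cells the salvage median was -0.26 and the de novo median -0.36, so the sign was kept but the larger median changed lists. Of the related genes named here, Prpsap2, Pnp2, Ak3, Ak4, Itpa, Gmpr, Nme1, Mthfs, Aldh1l1 and Aldh1l2 share over 10% of their 50-base stretches with transcripts of other genes, so their levels are less certain.

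The lists of genes that interconvert or degrade purine nucleotides had medians nearer to 0 than the de novo genes in V6.5 cells over MEFs, and of the opposite sign in shGldc. Of 12 detected interconversion genes, 3 were past 2-fold upward and 2 downward in V6.5 cells over MEFs (median 0.17), 1 upward and 2 downward in iPSCs over MEFs (median 0.18), none upward and Ampd3 downward in iPSCs over V6.5 cells (median 0.04), and none past 2-fold in shGldc (median 0.16). The mitochondrial adenylate kinase genes went opposite ways: Ak4 was at 2.30 FPKM in MEFs and 30.2 FPKM in V6.5 cells, and Ak3 at 18.9 and 2.54 FPKM. In shGldc, Ak3 had the highest log2 ratio of this list, 0.90, and Gmpr, the GMP reductase, the lowest, -0.98. Of 9 breakdown genes, 5 passed the filter in V6.5 cells over MEFs, with Itpa, a pyrophosphatase for ITP, 2.84-fold higher and Xdh, the xanthine dehydrogenase at 1.28 FPKM in MEFs and 0.269 FPKM in V6.5 cells, at a log2 ratio of -1.90 (median 0.01). The list's median was 0.32 in iPSCs over MEFs with 2 of 5 genes at least 2-fold higher and 1 lower, 0.17 in iPSCs over V6.5 cells with none of 4 past 2-fold, and 0.39 in shGldc, where all 5 detected genes were higher and none by 2-fold. The largest of these was Nt5e, at 2.67 FPKM in NTC and 4.63 FPKM in shGldc, but at 0.118 FPKM in untreated V6.5 cells, so the control libraries differed more than the knockdown from its control. Against untreated V6.5 cells 4 of the 5 breakdown genes were higher, with a median of 0.20.

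**Figure D5:**
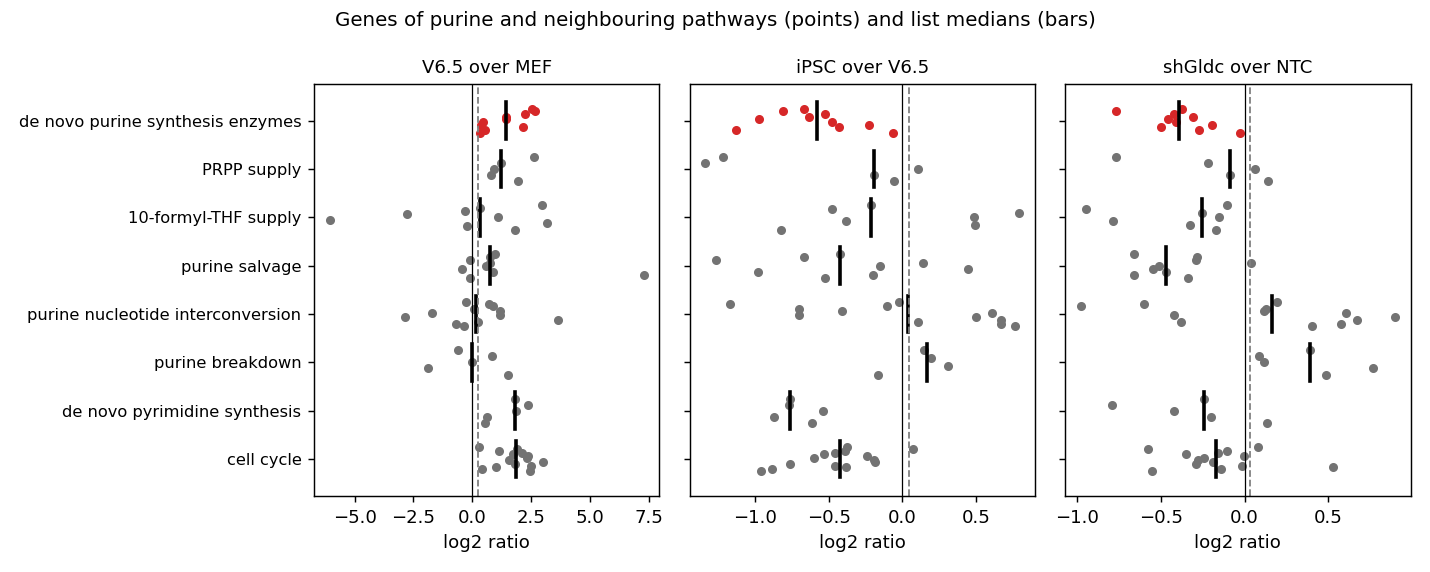
log2 ratio of FPKM + 0.1 (horizontal; each panel has its own scale) of the genes of 8 lists (vertical) in 3 comparisons, 1 library against 1 library. Points are genes, black bars list medians and the dashed line the median of all genes. In shGldc over NTC the 10 de novo purine genes (red) all lie left of 0 with a median of -0.39, and the 5 breakdown genes all lie right of it with a median of 0.39.

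De novo pyrimidine synthesis and the cell cycle served as neighbours that are also tied to growth. In V6.5 cells over MEFs, 3 of 5 pyrimidine genes were at least 2-fold higher, Dhodh (5.25-fold), Umps (3.67-fold) and Cad (3.55-fold), with a median log2 ratio of 1.83. Among 14 cell cycle genes 12 were at least 2-fold higher, with a median of 1.86 and Mcm5 (8.11-fold) at the top and Mki67 (1.23-fold) at the bottom. Both medians were above the 1.44 of the purine genes. In iPSCs over MEFs 3 pyrimidine genes (median 1.06) and 10 cell cycle genes (median 1.44) were at least 2-fold higher, and none of either list was lower by 2-fold. Lower by less than that were Ctps (-0.23) and Ctps2 (-0.06), and Rrm1 (-0.48) and Mki67 (-0.08). In iPSCs over V6.5 cells all 5 pyrimidine genes were lower (median -0.77), as were 13 of 14 cell cycle genes (median -0.43), none by 2-fold. In shGldc 4 of 5 pyrimidine genes were lower (median -0.24), with Dhodh at -0.79 and Ctps2 at 0.13, and 12 of 14 cell cycle genes were lower (median -0.17), from Top2a at -0.58 to Tyms at 0.53. None of either list passed 2-fold in shGldc over NTC. Against untreated V6.5 cells 4 of 5 pyrimidine genes were lower, with a median of -0.55, beside -0.36 for the purine genes. Of the cell cycle genes 10 of 14 were then lower, with a median of -0.29, and 2 were at least 2-fold lower, as were 13.9% of all genes.

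Likeness to the 10 genes was measured over 3 log2 ratios (V6.5 over MEF, iPSC over MEF and shGldc over NTC), as the Euclidean distance to the members' median profile, among 3956 genes with at least 10 FPKM in every library. The nearest genes outside the lists were 1810009A15Rik at a distance of 0.048, Pprc1 at 0.104, Osgep at 0.126, Rpa1 at 0.143 and Nxt1 at 0.147. Osgep, a subunit of the complex that modifies tRNA next to the anticodon, was at 23.5 FPKM in MEFs, 68.3 in V6.5 cells, 38.5 in iPSCs, 59.5 in NTC and 45.7 in shGldc. Rpa1, a subunit of the single-stranded DNA binding protein RPA, was at 49.1, 124.4, 79.9, 215.4 and 173.6 FPKM in the same order. Of the members, Adsl (0.194) and Paics (0.201) lay near the median profile, and the other 8 lay between 1.17 and 1.78 from it, so the median describes few of the 10 genes individually.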

How the data were processed

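RNA-seq was read from 2 tables deposited by the authors, with 3 libraries (MEFs, V6.5 cells, iPSCs) and 2 libraries (NTC, shGldc), and groups were taken from the labels, 1 library each. The authors extracted RNA with TRIzol, prepared libraries with a kit that does not mark strand, aligned reads to mm10 with TopHat2 2.1.0, assembled with StringTie 1.3.4d and obtained FPKM per gene with Ballgown. The labels also name mm9 and SAMtools 1.7. The annotation, filters and treatment of multiply mapped reads are not given in the sources used here, and how fragments of shared or overlapping sequence were split affects Impdh2, Gart, Ppat and Paics.

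From the deposited FPKM values, log2(FPKM + 0.1) ratios were computed in Python 3.11.15 with pandas 2.3.3 for genes with at least 1 FPKM in 1 library of a comparison. The pseudocount understates the change of low genes. With 1 library per group no test was possible, so 2-fold was used as a size rule and the share of all genes past the same size was given for each comparison. The tables were made separately, so ratios across them (NTC or shGldc over untreated V6.5 cells) also hold any difference between tables, and served only as a yardstick and as an alternative control. Positions, overlaps and 50-base stretches came from GENCODE M21 on mm10, and promoter windows from RefSeq. Depth was estimated from the steps between low FPKM values, which were few in NTC and shGldc.

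The 10 genes, the related lists (PRPP supply, the isoenzyme Adssl1, salvage, interconversion, breakdown, 10-formyl-THF supply, pyrimidine synthesis, cell cycle), the markers and the motifs were chosen with earlier results of these data known. The genes named were all 10 members, the targeted gene Gldc, the genes with the highest and lowest ratio of each list, those past 2-fold in both stem cell lines over MEFs or in shGldc, and the 5 genes nearest to the median profile. Not all genes that met this rule are spelled out, and Hprt, Prps1l1, Nme1 and the pluripotency markers were added after their values were seen. The pseudocount, scaling, filter, list and control were varied. The scripts were tested on simulated data.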

Additional observations from a re-analysis of the deposited data

Results flagged for a closer look

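Atic and Gmps had log2 ratios over MEFs of opposite sign in the pluripotent lines, but Atic in iPSCs was nearly level with MEFs. Atic had a log2 ratio of 0.46 in V6.5 cells over MEFs and -0.0184 in iPSCs over MEFs. Gmps had a log2 ratio of 0.57 in V6.5 cells and -0.57 in iPSCs. These values all lay within 0.59 in size, the robust SD of NTC over untreated V6.5 cells. With libraries scaled to the same FPKM sum the ratios were 0.22 and -0.32 for Atic and 0.33 and -0.87 for Gmps, and centred on the median gene 0.21 and -0.33, and 0.32 and -0.88. With 1 library per line, and the MEF library shared by both ratios, the difference between the lines was not tested.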

How the results depend on the processing

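No paired analysis was possible because each group had 1 library and no result came from a test. Each library scaled to the same FPKM sum shifted the median of all genes by -0.23 in V6.5 over MEF and -0.30 in iPSC over MEF, and by less than 0.1 in the other comparisons. The members' median log2 ratio in V6.5 over MEF (1.44) became 1.199 under that scaling, 1.19 when centred on the median gene, 1.84 for the 6 IMP-making enzymes and 1.00 without Gart and Impdh2, which share over 10% of their 50-base stretches with other genes. In iPSC over MEF (0.63) it became 0.33, 0.32, 1.26 and 0.36 in the same order, and 0.83 as a mean. Under both scalings 4 rather than 2 members were lower in iPSCs than in MEFs, as Impdh1 (-0.14 and -0.15) and Adss (-0.04 and -0.05) changed sign while the genes lower among all 13032 went from 5424 to 6461 and 6516, and 2 rather than 1 were at least 2-fold lower in iPSCs than in V6.5 cells. When untreated V6.5 cells replaced NTC, 2 members, Pfas (0.32) and Impdh1 (0.56), were higher in shGldc. Among the related lists 8 genes were then past 2-fold downward and 4 upward, against 1 and 0 over NTC. The alternatives for counts by any amount, and for counts against untreated V6.5 cells, were chosen after seeing the data. Pseudocounts of 1 and 0.01 moved no member median by over 0.1 and no member's sign. The counts over all genes moved more. Genes at least 2-fold higher and lower numbered 1241 and 917 in iPSC over V6.5, and became 753 and 556 with a pseudocount of 1, 634 and 502 with a minimum of 5 FPKM and 2015 and 1461 without a filter. In shGldc over NTC they numbered 1074 and 919, and became 654 and 538, 475 and 322, and 1996 and 1842. The 5 FPKM minimum also took the shares at least 2-fold lower to 5.93% and 3.96%, and genes at least 2-fold higher in iPSC over MEF from 4104 to 2694. By any amount, genes higher in iPSC over V6.5 went from 6482 to 4294 with that minimum and 9796 without a filter, and genes lower in shGldc over NTC from 5649 to 3751 with that minimum, where fewer or more genes enter. Without replicates, and with depth only estimated, no difference here has a measured biological error.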
